A study of Mus musculus with 24 samples.

Results

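The genes that load and display peptides on MHC molecules were followed in bone marrow-derived macrophages (BMDMs) treated with dopamine (DA), a neurotransmitter that immune cells can also sense. The 49 genes were those listed for at least 1 stimulus under a symbol that begins with H2-, the mouse MHC, together with B2m, Tap1, Tap2, Tapbp, Tapbpl, Erap1, Nlrc5, Ciita, Cd74, Ifi30 and Cd1d1, out of 18740 genes listed in all. The rule that chose them uses gene symbols and no measured value, but it was set with earlier results of these data known. Class I held 33 of them (26 heavy chains and 7 loading or control genes) and class II held 13 (10 chains and 3 chaperone, processing or control genes). The other 3 were Cd1d1, the pseudogene symbol H2-T-ps, and H2-Ke6, a dehydrogenase gene that lies in the MHC but encodes no MHC protein. Genes were sorted by symbol. RefSeq gives H2-T-ps as protein coding, and H2-Bl and H2-T10, kept here among the heavy chains, as transcribed pseudogenes.

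BMDMs were grown from C57BL/6 mice of 10 weeks, either WT or DRD5-/-, and RNA-seq was run on 24 libraries in 8 groups of 3. M1 cells received LPS at 100 ng/ml with IFN-γ at 50 ng/ml, and M2 cells received IL-4 and IL-13 at 10 ng/ml each, both for 12 h. Each stimulus was given to cells of both genotypes with and without DA. The labels give no DA concentration, while the study's figure legends for this RNA-seq state one. DRD5-/- mice lack the dopamine receptor D5, which couples to cAMP signaling. All cells of all groups had matured in medium conditioned by L929 cells, a source of the growth factor M-CSF. The sources used here do not say whether the 3 libraries of a group came from separate mice or cultures, so that the p-values measure only the spread between these libraries. Levels are FPKM, fragments scaled to transcript length and to the mapped total of the library, as the authors deposited them. Changes are differences of log2(FPKM + 1), which understate the change of genes near or below 1 FPKM. A gene was counted as changed when it passed an adjusted p of 0.001 (limma, Benjamini-Hochberg over every gene tested) and a 1.2-fold change. The test was run on 10040 genes in M1 and on 10735 in M2, those that 3 or more of the 12 libraries held at 1 FPKM or above.

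Class I molecules are a heavy chain paired with β2-microglobulin (B2m). They carry peptides that the transporter Tap1/Tap2 moves into the endoplasmic reticulum, where Erap1 trims them and tapasin (Tapbp) or its relative Tapbpl edits them, and they are read by CD8 T cells and NK cells. Class II molecules are an α and a β chain (H2-Aa with H2-Ab1) that travel with the invariant chain Cd74. They exchange peptides with the help of H2-DM (H2-DMa, H2-DMb1, H2-DMb2) and are read by CD4 T cells. H2-Eb1 encodes another β chain, and the α chain gene of its pair is listed here as the pseudogene H2-Ea-ps. The transactivator Ciita switches on class II genes and its relative Nlrc5 acts on class I genes, both through an enhanceosome bound to the X and Y boxes of the promoters. In macrophages IFN-γ is the classical inducer of both classes, and IL-4 also raises class II.

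The promoters of 6 of the genes with changed levels in M2 cells are shown because the class II genes among them moved together. Each line holds the 160 bases before the RefSeq start of transcription in GRCm38.p6, 5′ to 3′ along the gene. Capitals mark ATTGG (the Y box core), AACNGATG (an X box core), TGACG (the core of a cAMP response element) and GAANNGAAA (an interferon response-like motif), on either strand, so that a motif of the opposite strand shows as its reverse complement (CCAAT for the Y box core). In H2-Aa the capitals join TGACG on both strands, which overlap.
H2-Aa (chr17:34287824-34287983, minus strand): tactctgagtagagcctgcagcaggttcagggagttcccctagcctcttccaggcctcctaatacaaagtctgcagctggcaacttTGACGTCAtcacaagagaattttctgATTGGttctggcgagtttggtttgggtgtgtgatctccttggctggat
H2-Eb1 (chr17:34305707-34305866, plus strand): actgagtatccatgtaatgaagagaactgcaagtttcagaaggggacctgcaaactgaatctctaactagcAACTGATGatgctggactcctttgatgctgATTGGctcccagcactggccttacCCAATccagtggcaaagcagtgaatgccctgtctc
H2-DMb1 (chr17:34153031-34153190, plus strand): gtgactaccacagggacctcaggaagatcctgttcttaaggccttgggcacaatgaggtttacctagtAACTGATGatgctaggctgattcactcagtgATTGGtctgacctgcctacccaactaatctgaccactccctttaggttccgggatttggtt
B2m (chr2:122147527-122147686, plus strand): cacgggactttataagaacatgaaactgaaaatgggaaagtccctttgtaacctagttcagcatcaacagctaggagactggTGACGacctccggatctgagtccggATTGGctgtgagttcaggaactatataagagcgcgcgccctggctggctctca
H2-K1 (chr17:34000348-34000507, minus strand, the first of 2 RefSeq entries): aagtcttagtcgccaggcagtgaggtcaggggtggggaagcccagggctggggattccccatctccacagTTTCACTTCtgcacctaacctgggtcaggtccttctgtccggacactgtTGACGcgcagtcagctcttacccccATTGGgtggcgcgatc
H2-D1 (chr17:35262934-35263093, plus strand): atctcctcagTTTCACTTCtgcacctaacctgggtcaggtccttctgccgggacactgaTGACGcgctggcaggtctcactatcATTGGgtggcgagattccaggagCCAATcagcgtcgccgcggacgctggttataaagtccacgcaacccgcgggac

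RefSeq held a promoter for 34 of the 49 genes, 9 of class II and 23 of class I. On either strand, ATTGG was in 7 of the 9 class II genes with a promoter (H2-Aa, H2-DMb1, H2-DMb2, H2-Eb1, H2-Eb2, H2-Oa and H2-Ob), in 17 of the 23 class I genes and in 25.6% of all 32851 promoters of this length. AACNGATG was in H2-DMb1, H2-DMb2, H2-Eb1 and H2-Eb2 among class II genes and in 1.22% of all promoters. TGACG was in 11 of the 23 class I genes, 1 class II gene and 13.8% of all promoters. GAANNGAAA was in 8 of the 23 class I genes, in none of the 9 class II genes, and in 3.85% of all promoters. This pattern fixes the spacing of its parts, so that GAAACTGAAA in the B2m promoter, with a wider spacing, is neither marked nor counted. The class I and class II counts are by gene, while the percentages are by promoter, and a gene can have several. By gene the background was 7789 of 27025 for ATTGG, 374 for AACNGATG, 4204 for TGACG and 1218 for GAANNGAAA. Of the 7 class II genes with ATTGG, H2-DMb2 did not pass with DA in WT M2 cells, and H2-Eb2, H2-Oa and H2-Ob were not tested there. Ciita, Cd74, H2-Ab1, H2-DMa and Ifi30, which fell with DA in those cells, had no match to any of these motifs or no promoter entry. Whether the motifs go with the changes was not tested. These are matches of letters in 1 window and not measured binding sites.

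Under the filter on low values, 21 class I and 11 class II genes were tested in M1 cells, and 20 class I and 9 class II genes in M2 cells. H2-Oa and H2-Ob, the chains of the H2-DM inhibitor H2-O, were tested in M1 but not in M2 cells, where their highest libraries held 0.62 and 0.17 FPKM. H2-Eb2 was under the filter in both stimuli and the pseudogene H2-Ea-ps in M1, with a highest FPKM of 0.28 and 0 in M1. Only 45 of the 49 genes were listed for M2, without H2-Ea-ps, H2-M10.2, H2-M10.4 and H2-M11. Of the class I heavy chains, H2-Q1, H2-Q10, H2-Bl, H2-T3, H2-T18, H2-M5, H2-M9, H2-M11 and the 4 H2-M10 genes did not pass in either stimulus. The highest FPKM among them was that of H2-Q1, at 0.83 in M1 and 1 in M2, and the next that of H2-Q10, at 0.8 in M1 and 0.37 in M2. H2-Bl reached 0.37 FPKM in M1, H2-T18 reached 0.21 FPKM in M1 and H2-M5 reached 0.17 FPKM in M2, and the rest did not exceed 0.1 FPKM in any library. H2-Q2 passed in M1 only and reached 0.69 FPKM in M2.

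Among untreated WT cells, class I genes were higher under the M1 stimulus and class II genes lay closer together. Since the M1 and M2 values may have been normalized apart, this is a description without a test. Of the 21 class I genes with values for both stimuli, 16 were at least 2-fold higher in M1 with no overlap of the libraries. None was higher in M2 by this rule. The 16 included the near copies H2-Q6, H2-Q7, H2-Q8 and H2-Q9, and also H2-T10 and H2-T22, which share sequence. The split of reads within these sets is uncertain, so that they are not separate observations. H2-Q2, among the 21 but not the 16, passed the filter on low values through M1 alone. The background was 10.5% of 11148 genes higher in M1 and 23.2% higher in M2. The median difference, M1 minus M2, was 1.93 on the log2 scale for class I, 0.12 for class II and −0.39 for all genes.
B2m was the most abundant of the 49 genes, at 6890 FPKM in M1 and 3868 FPKM in M2. The transporter gene Tap1 stood at 217.08, 218.35 and 215.03 FPKM in the M1 libraries and at 11.84, 13.28 and 10.77 FPKM in the M2 libraries, an 18.1-fold ratio of means. Its partner Tap2 had a ratio of 5.25 and Nlrc5 a ratio of 12.0. Among heavy chains, H2-D1 had a ratio of 1.33, H2-K1 of 2.08, H2-Q4 of 5.21 and H2-T22 of 7.46. The nonclassical chains H2-T23 and H2-M3 had ratios of 1.71 and 2.35, near those of the classical chains. Erap1 alone of the class I genes had a higher mean in M2, by 1.34-fold.
Among the 11 class II genes H2-Ob alone met the 2-fold rule, which is on the log2(FPKM + 1) scale, at 1.4 FPKM in M1 against 0.153 in M2. H2-Oa, at 1.8 against 0.413 FPKM, fell just short of it. Both genes passed the filter on low values through M1 alone, so that their higher M1 level was built into their being counted. Ciita stood at 11 FPKM in M1 and 8.79 in M2, and H2-Ab1 at 299.3 and 275. Cd74 was 1.9-fold and H2-Aa 1.79-fold higher in M2, short of the 2-fold rule, and the libraries did not overlap. H2-Ke6 was 6.15-fold higher in M2 than in M1. Of the 50-base stretches of its transcripts 70.5% are shared with Gm20427, so that reads from those stretches cannot be assigned to either.

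**Figure D1:**
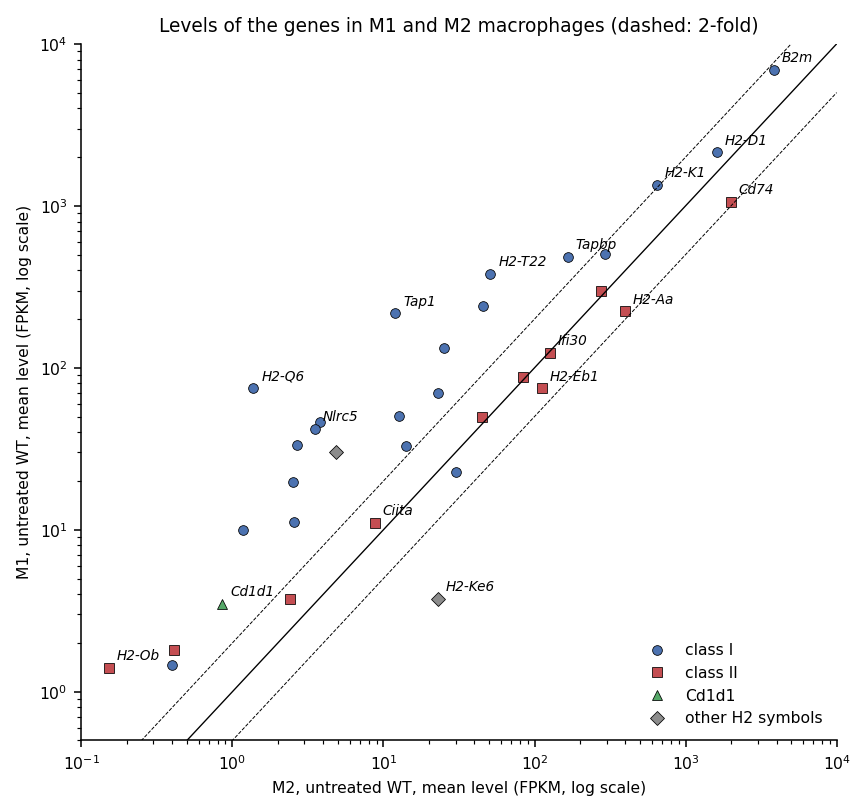
Mean FPKM (n = 3 libraries) of the 35 genes in untreated WT cells, with M2 on the x axis and M1 on the y axis, both log scales; the solid line marks equal levels and the dashed lines a 2-fold difference. Most class I points lie above the upper dashed line, while most class II points lie around the solid line and those of H2-Ob and H2-Oa lie above the upper dashed line.

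DA lowered the class II genes of WT M2 cells together. Of the 9 tested, 8 fell and none rose, with a background of 20.4% of all 10735 genes lower and 25.9% higher. Their median change was −0.91 on the log2 scale, beside 0.03 for all genes tested. The gene with the largest change was Ciita (chr16:10480014-10531064), the master regulator of the class.
Ciita stood at 8.33, 8.91 and 9.14 FPKM in untreated WT cells and at 0.81, 0.86 and 1.07 FPKM with DA. The groups were far apart and the means differed 9.63-fold on the FPKM scale. The change was −2.36 ± 0.06 (SE) on the log2 scale, with an adjusted p of 1.92e-13.
Cd74, the invariant chain that guards the peptide groove of new class II molecules, was the most abundant class II gene. Its untreated WT libraries held 2075, 2064 and 1862 FPKM and its DA-treated WT libraries 1034, 1026 and 1059 FPKM. No library of either group reached the other group, and the change was −0.94 ± 0.03 (adjusted p = 8.13e-12).
The α chain gene H2-Aa held 406.73, 395.07 and 393.25 FPKM without and 218.86, 219.64 and 219.6 FPKM with DA, a change of −0.86 ± 0.02 (adjusted p = 2.23e-13). The β chain gene H2-Ab1 held 272.76, 274.96 and 277.33 FPKM without and 146.43, 148.38 and 143.63 FPKM with DA, a change of −0.91 ± 0.03 (adjusted p = 5e-13). The second β chain gene, H2-Eb1, fell from 115.23, 109.54 and 112.2 FPKM to 49.57, 50.78 and 53.05 FPKM (−1.12 ± 0.03, adjusted p = 6.45e-13). In each of these chains every DA-treated WT library lay below every untreated one, by about the same fold.
Of the 3 H2-DM chains, which help class II molecules exchange their first peptide, 2 fell. H2-DMa held 48.3, 44.47 and 41.7 FPKM without and 24, 21.33 and 24.34 FPKM with DA (−0.92 ± 0.05, adjusted p = 1.25e-09). H2-DMb1 held 84.64, 87.25 and 80.22 FPKM without and 46.14, 44.14 and 43.9 FPKM with DA (−0.89 ± 0.04, adjusted p = 5.24e-11). Its near copy H2-DMb2, at 3.09, 2.08 and 2.04 FPKM without and 1.53, 2.08 and 2.03 FPKM with DA, did not pass (−0.23 ± 0.18, adjusted p = 0.267). H2-DMb1 and H2-DMb2 share 22.7% of the 50-base stretches of H2-DMb1, so that reads from those stretches cannot be assigned to either. Ifi30, a thiol reductase that unfolds antigens in lysosomes, held 122.13, 126.89 and 128.93 FPKM without and 93.06, 94.68 and 94.85 FPKM with DA, the smallest of the 8 changes (−0.42 ± 0.03, adjusted p = 7.31e-09).

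**Figure D2:**
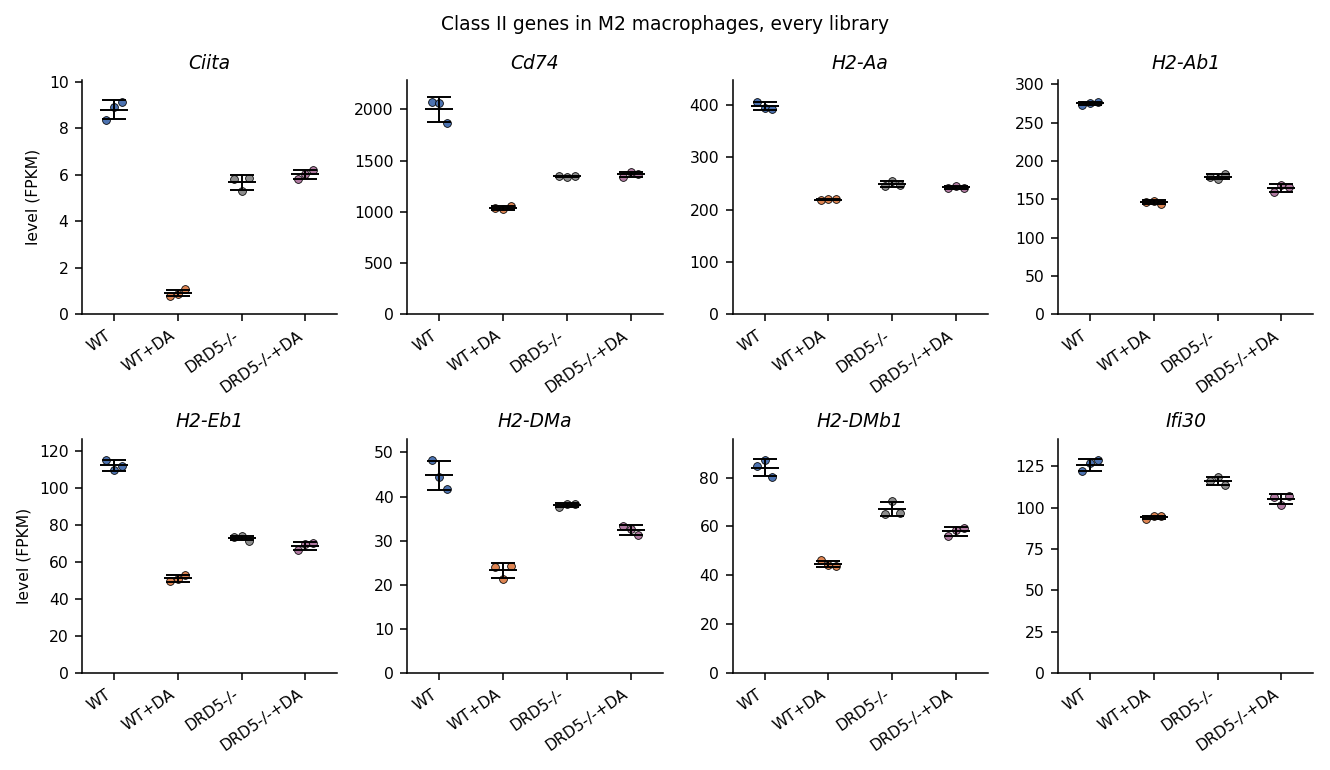
FPKM of 8 class II genes in every M2 library (points), with the mean and SD of the 3 libraries of each group. The DA-treated WT libraries are the lowest group in every panel, and for Ciita they lie at 0.81 to 1.07 FPKM against 5.31 to 9.14 FPKM in the other groups.

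In DRD5-/- M2 cells none of the 32 genes tested changed with DA, with a background of 4.02% of all genes in either direction. At an unadjusted p under 0.05 there were 15 of the 32, beside 4570 of all 10735 genes. Ciita stood at 5.83, 5.31 and 5.86 FPKM without and 5.82, 6.01 and 6.2 FPKM with DA, a change of 0.07 ± 0.06 (adjusted p = 0.378). Cd74 stood at 1351, 1343 and 1349 FPKM without and 1342, 1392 and 1365 FPKM with DA, so that the groups overlapped (0.02 ± 0.03, adjusted p = 0.703). H2-DMa and H2-DMb1 had the largest negative values of class II in these cells, −0.23 ± 0.05 for H2-DMa (adjusted p = 0.00536) and −0.21 ± 0.04 for H2-DMb1 (adjusted p = 0.00131). H2-Ab1 stood at −0.12 ± 0.03 (adjusted p = 0.0024).
The difference between the DA effects of the 2 genotypes, WT minus DRD5-/-, was itself past the threshold for 8 of the 9 class II genes, all negative. The background was 20.4% of genes negative and 22.8% positive. It was −2.43 ± 0.08 for Ciita (adjusted p = 1.34e-11), −1.04 ± 0.05 for H2-Eb1 (adjusted p = 1.28e-10) and −0.96 ± 0.05 for Cd74 (adjusted p = 5.7e-10). H2-DMb2 was the exception, at −0.42 ± 0.26 (adjusted p = 0.169).

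The untreated DRD5-/- M2 cells already held less class II RNA than untreated WT cells. Of the 9 class II genes, 6 were lower and none was higher, with a background of 4.15% lower and 1.37% higher, and the class II median was −0.555 beside −0.03 for all genes. The 6 were H2-Aa, H2-Ab1, H2-Eb1, Cd74, Ciita and H2-DMb1. H2-Aa held 244.91, 255.37 and 247.46 FPKM in untreated DRD5-/- cells, below every untreated WT library (−0.67 ± 0.02, adjusted p = 1.33e-10). Ciita was 1.55-fold lower on the FPKM scale (−0.56 ± 0.06, adjusted p = 1.16e-05). H2-DMb1 had the smallest of these differences (−0.32 ± 0.04, adjusted p = 3.39e-05). No class I gene passed in this comparison (limma). An unadjusted p under 0.05 was held by 11 of the 20, beside 4021 of all 10735 genes. H2-K1 was at −0.24 ± 0.02 (adjusted p = 1.46e-06) and H2-Q4 at −0.25 ± 0.03 (adjusted p = 0.000129), both under the 1.2-fold limit.
Among DA-treated cells, WT lay below DRD5-/- in 15 of the 32 genes and above it in 1, with a background of 20.4% lower and 29.2% higher. The class II genes counted were Ciita (−1.88 ± 0.06, adjusted p = 1.77e-12), H2-DMa, H2-Eb1, Cd74 and H2-DMb1, from −0.46 to −0.37 after Ciita. H2-Aa and H2-Ab1 did not reach 1.2-fold here. H2-Aa held 218.86 to 219.64 FPKM in DA-treated WT and 240.7 to 245.53 FPKM in DA-treated DRD5-/- cells (−0.14 ± 0.02, adjusted p = 3.46e-05). These comparisons share libraries with those above, so that their values are set side by side only.

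Some class I genes of WT M2 cells also fell with DA. Of the 20 tested, 10 fell and Tap1 rose, with a background of 20.4% of genes lower and 25.9% higher, and the median change was −0.40 beside 0.03 for all genes. B2m and both classical heavy chains were among those that fell.
B2m (chr2:122147687-122153082), the light chain of every class I molecule, held 3870, 4004 and 3729 FPKM without and 2521, 2485 and 2587 FPKM with DA. The groups lay well apart and the change was −0.61 ± 0.03 (adjusted p = 7.25e-11). The classical heavy chain H2-D1 held 1640, 1620 and 1549 FPKM without and 1092, 1120 and 1082 FPKM with DA (−0.55 ± 0.02, adjusted p = 6.66e-11). The other classical chain, H2-K1, held 654.35, 648.48 and 640.97 FPKM without and 490.94, 494.01 and 488.58 FPKM with DA (−0.40 ± 0.02, adjusted p = 4.53e-10). C57BL/6 mice have no H2-L.
The nonclassical chains split. H2-T23, which encodes Qa-1 and presents a leader peptide to NK cell receptors, held 296.68, 292.5 and 294.07 FPKM without and 131.9, 141.87 and 136.4 FPKM with DA, 2.15-fold lower (−1.10 ± 0.03, adjusted p = 3.89e-13). H2-T24 held 22.06, 22.32 and 24.61 FPKM without and 9.26, 7.75 and 9.9 FPKM with DA (−1.27 ± 0.07, adjusted p = 4.68e-10). Both values were further from 0 than those of the classical chains. H2-M2 was low, at 2.67, 2.55 and 2.45 FPKM without and 0.99, 0.44 and 1 FPKM with DA (−0.99 ± 0.10, adjusted p = 7.12e-07). H2-T22 (−0.57 ± 0.03, adjusted p = 6.1e-10) and H2-Q4 (−0.53 ± 0.03, adjusted p = 4.19e-09) fell too. H2-M3, which presents formylated bacterial peptides, did not pass, at 13.65, 14.24 and 14.36 FPKM without and 14.04, 13.55 and 13.84 FPKM with DA, and the groups overlapped.
Of the 7 loading and control genes, 3 fell, 1 rose and 3 did not pass. Tapasin, Tapbp, held 176.81, 167.47 and 155.4 FPKM without and 83.12, 80.99 and 82.44 FPKM with DA (−1.01 ± 0.04, adjusted p = 5.29e-12). Tapbpl held 13.55, 11.22 and 13.17 FPKM without and 9.42, 9.12 and 10.14 FPKM with DA (−0.37 ± 0.06, adjusted p = 0.000105). Tap1 was the exception, since it rose from 11.84, 13.28 and 10.77 FPKM to 17.13, 16.93 and 17.18 FPKM (0.48 ± 0.07, adjusted p = 1.27e-05). Tap2, its partner in the transporter, stood at 25.21, 24.67 and 26.14 FPKM without and 26.25, 26.52 and 25.64 FPKM with DA, with overlap (0.04 ± 0.03, adjusted p = 0.261). Nlrc5 was at −0.19 ± 0.06 (adjusted p = 0.0129) and Erap1 at −0.05 ± 0.03 (adjusted p = 0.166). Both had values much nearer 0 than Ciita, the class II counterpart of Nlrc5.

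**Figure D3:**
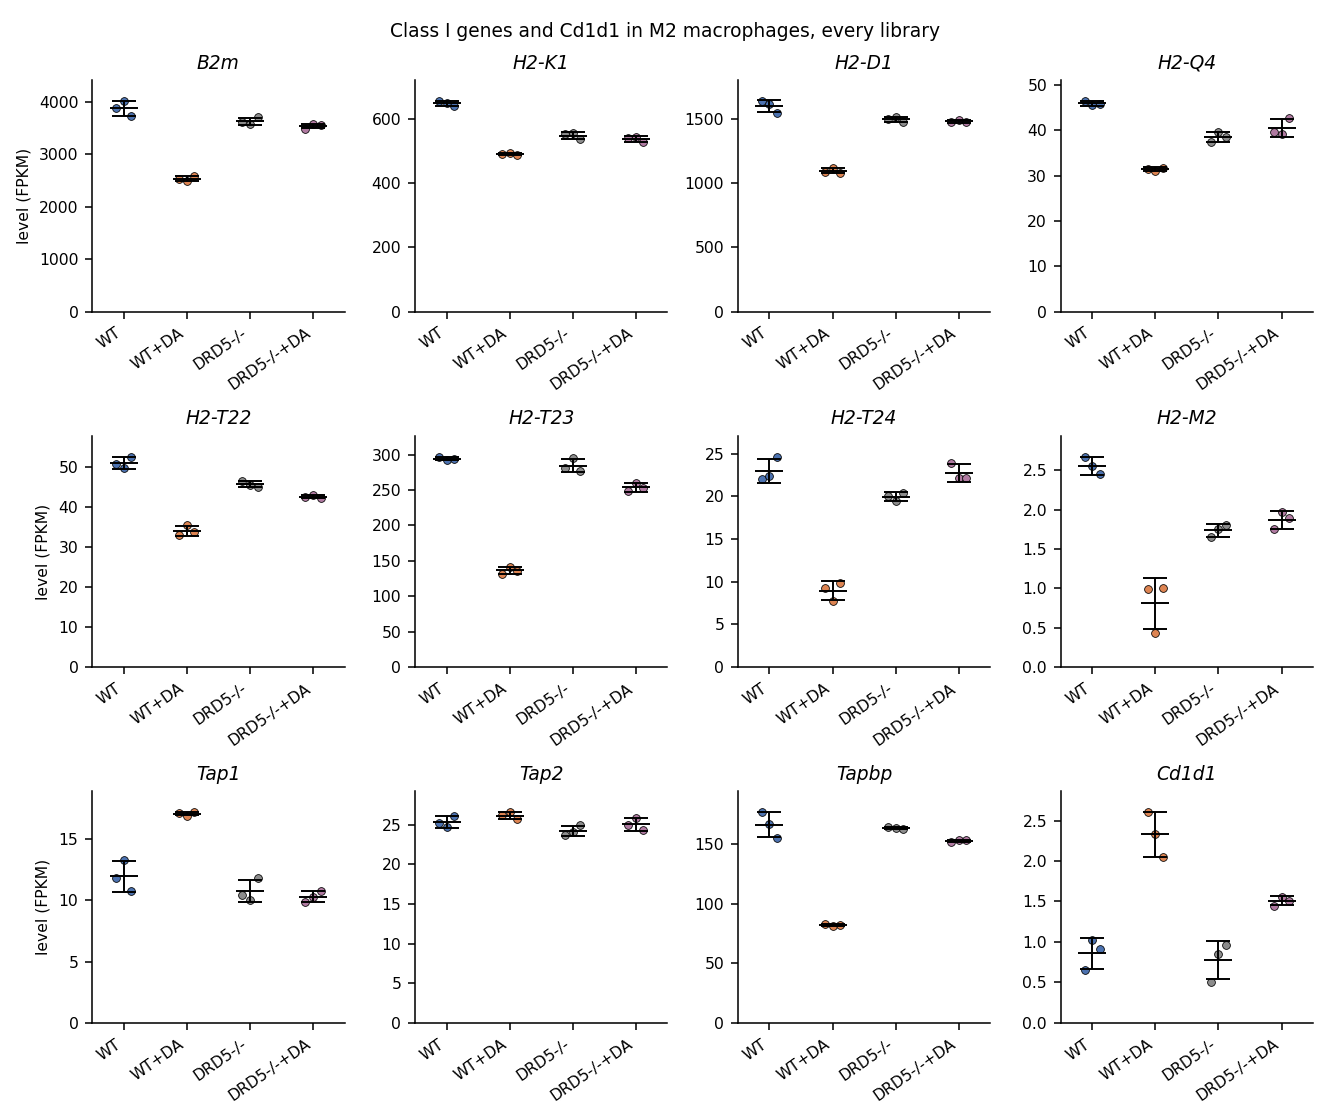
FPKM of 11 class I genes and Cd1d1 in every M2 library (points), with the mean and SD of the 3 libraries of each group. DA-treated WT libraries are the lowest group for B2m, H2-K1, H2-D1, H2-Q4, H2-T22, H2-T23, H2-T24, H2-M2 and Tapbp, and the highest for Tap1 and Cd1d1.

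The DA effect on class I differed between the genotypes for 12 of the 20 genes in M2 cells, negative in 11 and positive for Tap1, with a background of 20.4% negative and 22.8% positive. It was −0.94 ± 0.04 for H2-T23 (adjusted p = 1.87e-10), −0.91 ± 0.05 for Tapbp (adjusted p = 1.31e-09), −0.57 ± 0.04 for B2m (adjusted p = 1.13e-08) and 0.54 ± 0.09 for Tap1 (adjusted p = 0.000155). For Erap1 and Nlrc5 the difference passed while the change in WT cells did not. In DRD5-/- cells Nlrc5 stood at 2.62, 2.94 and 2.75 FPKM without and 3.58, 3.45 and 3.69 FPKM with DA (0.28 ± 0.06, adjusted p = 0.00354, not past the threshold). Erap1 in those cells stood at 27.38, 28.2 and 27.72 FPKM without and 34.39, 32.78 and 32.97 FPKM with DA (0.26 ± 0.03, adjusted p = 5.53e-05), just under the 1.2-fold limit. Tapbpl, lower with DA in WT cells, had a difference between genotypes of −0.40 ± 0.09 that missed the threshold (adjusted p = 0.0012).

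H2-Q6, H2-Q7, H2-Q8 and H2-Q9 encode Qa-2 and are near copies, and H2-T10 and H2-T22 share 31.7% of the 50-base stretches of H2-T10. The 4 H2-Q genes jumped between libraries of the same group in M2 cells. H2-Q6, for example, read 0.04, 2.23 and 0.18 FPKM in the DA-treated WT libraries and H2-Q8 read 0, 4.76 and 3.79 FPKM in the DA-treated DRD5-/- libraries. The split of reads between them is therefore uncertain, and their sum was steadier. The sum was 10.4 ± 2.13 FPKM (SD, n = 3) in untreated WT, 9.17 ± 0.751 in DA-treated WT, 6.27 ± 1.2 in untreated DRD5-/- and 7.75 ± 0.979 in DA-treated DRD5-/- M2 cells. In M1 cells it was between 164.8 and 187.7 FPKM in the group means. None of the 4 changed with DA in either stimulus.

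Cd1d1, which displays lipids to NKT cells and is not encoded in the MHC (chr3:86995834-87012358), rose with DA in WT cells under both stimuli. In M2 cells it stood at 0.65, 1.02 and 0.91 FPKM without and 2.6, 2.34 and 2.05 FPKM with DA (0.84 ± 0.10, adjusted p = 3.76e-06). Cd1d1 passed the filter on low values in M2 through the DA-treated libraries, so that a higher level with DA was built into its being tested there. DRD5-/- M2 cells held 0.51, 0.85 and 0.96 FPKM without and 1.45, 1.56 and 1.51 FPKM with DA, a value of 0.51 ± 0.10 that missed the threshold (adjusted p = 0.0021). The difference between the genotypes was 0.33 ± 0.14 and did not pass (adjusted p = 0.053).
In M1 cells Cd1d1 held 3.19, 3.69 and 3.57 FPKM without and 6.9, 6.87 and 7.21 FPKM with DA (0.84 ± 0.06, adjusted p = 8.85e-08). DRD5-/- M1 cells held 3.74 to 4.18 FPKM without and 3.58 to 4.19 FPKM with DA, and overlapped. Here the difference between genotypes passed (0.88 ± 0.09, adjusted p = 4.85e-06). Cd1d1 shares 19.1% of its 50-base stretches with Cd1d2, which is not among the genes analysed here. Of the remaining H2 symbols, H2-Ke6 did not pass with DA in any group. H2-T-ps, a sequence that shares 18% of its 50-base stretches with H2-T23, held 3.9, 5.32 and 5.26 FPKM without and 2.87, 2.52 and 3.82 FPKM with DA in WT M2 cells and missed the threshold (−0.52 ± 0.13, adjusted p = 0.00292), while its difference between the genotypes passed (−0.91 ± 0.19, adjusted p = 0.000702).

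The stimuli and cell type were checked on markers. All 7 macrophage markers reached 1 FPKM in every group, and the 4 M1 markers summed to at least 4280 FPKM in M1 and to at most 1.37 FPKM in M2 libraries. In untreated WT cells the means of the M2 marker Chil3 were 1.52 FPKM in M1 and 44.8 in M2, and those of Mrc1 11.8 and 306. Retnla stood at 0 and 104 FPKM, while Arg1 went the other way, at 64.4 and 28.9 FPKM. With DA in WT M2 cells the means of Arg1, Mrc1 and Chil3 rose to 592, 537 and 61.2 FPKM, while that of Retnla fell to 29.3 FPKM. Drd5 was not listed in M1 and was above 0 in 2 M2 libraries, both WT, at no more than 0.06 FPKM, so the genotype could not be checked on it. The macrophage markers summed to 10560 to 10736 FPKM in untreated and 8292 to 8329 FPKM in DA-treated WT M2 libraries, and to 10723 to 11173 FPKM over the DRD5-/- M2 libraries. Between untreated and DA-treated WT M2 cells the mean of Lyz2 went from 6799 to 4753 FPKM, that of Itgam from 132 to 198 FPKM and that of Cd68 from 2231 to 2205 FPKM. Among 8 dendritic cell markers only Batf3 reached 1 FPKM in M2 cells. Their sum was 10.2 to 10.8 FPKM in untreated WT, 6.71 to 7.88 in DA-treated WT, 13.4 to 14.6 in untreated DRD5-/- and 9.27 to 13.1 in DA-treated DRD5-/- libraries, while Flt3, Clec9a and Xcr1 stayed at or under 0.12 FPKM. Of 6 B cell markers only Cd22 reached 1 FPKM, and the list summed to 7.6 to 7.89 in untreated WT, 4.88 to 5.48 in DA-treated WT and 8.99 to 10.7 FPKM in DRD5-/- M2 libraries. Of 6 T cell markers only Cd4 reached 1 FPKM, and the list summed to 4.23 to 4.76 FPKM in untreated WT, 2.57 to 3.2 in DA-treated WT, 6.67 to 6.86 in untreated DRD5-/- and 5.62 to 6 in DA-treated DRD5-/- M2 libraries. The fibroblast markers summed to 119.95 to 122.92 FPKM in untreated WT, 94.2 to 95.7 in DA-treated WT and 74.8 to 82.1 in DRD5-/- M2 libraries. Within that list the mean of Dcn went from 75.1 to 43.3 FPKM with DA in WT cells, while those of Col1a1 and Col1a2 went from 19 to 23.4 FPKM and from 21.5 to 25.9 FPKM. In M1 cells the fibroblast markers summed to only 3.8 to 4.68 FPKM over the libraries of all groups. The dendritic cell markers summed there to 41.3 to 42.4 FPKM in untreated and 24.6 to 25.2 FPKM in DA-treated WT libraries. The neutrophil markers summed to 42.6 to 80.6 FPKM in WT and 14.6 to 20.1 FPKM in DRD5-/- M1 libraries. The part of these markers in the class I and class II results was not tested.

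Few of the class I and class II genes passed the test with DA in M1 cells. Of the 35 genes tested in WT M1 cells, 2 passed, with a background of 14.3% of all genes in either direction. They were Cd1d1, which rose, and H2-M2, which fell from 10.92, 12.4 and 10.09 FPKM to 7.53, 7.93 and 7.43 FPKM (−0.49 ± 0.06, adjusted p = 8.39e-06). The class I median was 0.03 and the class II median 0.01, beside −0.07 for all genes. At an unadjusted p under 0.05 there were 9 of 21 class I and 3 of 11 class II genes, beside 5249 of all 10040 genes. Most of those class I and class II values were small.
No class II gene passed (limma). Ciita held 11.31, 10.68 and 11.01 FPKM without and 12.84, 13.6 and 13.63 FPKM with DA, so that the groups did not overlap, but the change stayed just under the 1.2-fold limit (0.26 ± 0.04, adjusted p = 0.000141). It passed with a pseudocount of 0.1, with median-of-ratios scaling, and without WT M1 DA-treated replicate 1 or untreated replicate 1, with 1 class II gene counted each time. H2-Aa was at 0.01 ± 0.03, H2-Ab1 at −0.04 ± 0.04 and Cd74 at −0.06 ± 0.03. H2-Ab1 and Cd74 turned positive, at 0.04 and 0.02, with median-of-ratios scaling, and H2-Aa turned negative, at −0.01, without WT M1 DA-treated replicate 2. The other class II chains ranged from −0.12 for H2-Ob to 0.22 for H2-Oa, with H2-Eb1 at 0.02, H2-DMa at 0.09, H2-DMb1 at −0.05 and H2-DMb2 at 0.10 on the log2 scale. Ifi30 held 125.79, 124.62 and 121.14 FPKM without and 107.48, 104.32 and 108.36 FPKM with DA (−0.21 ± 0.04, adjusted p = 0.000405, under 1.2-fold).
Among class I genes, Tap2 (0.16 ± 0.03, adjusted p = 0.000327) and H2-Q4 (0.16 ± 0.02, adjusted p = 7.39e-05) had small adjusted p-values at sizes under 1.2-fold. H2-Q8 had the largest positive value of class I, at 0.36 ± 0.20, and did not pass (adjusted p = 0.162). B2m was at 0.08 ± 0.05, H2-D1 at 0.03 ± 0.04 and H2-K1 at 0.05 ± 0.03. Tapbpl was at 0.13, Erap1 at 0.12, Nlrc5 at 0.05 and Tap1 at −0.07 on the log2 scale, while Tapbp was at 0.00. In DRD5-/- M1 cells none of the 35 genes, and 0% of all genes, changed with DA (limma). At an unadjusted p under 0.05 there was 1 of the 35, beside 569 of all 10040 genes. Of the comparisons between the genotypes in M1, H2-Q7 was higher in untreated DRD5-/- cells (0.28 ± 0.04, adjusted p = 0.000556, 1 of 35 against a background of 0.936%), a gene that shares 26.4% of its 50-base stretches with other genes. This call was lost when any of the 6 untreated M1 libraries was left out. DA-treated WT M1 cells differed from DA-treated DRD5-/- cells in Cd1d1, H2-M2 and Ifi30, 3 of 35 against a background of 18.5%. Cd1d1 was the only gene of the 35 with a DA effect that differed between the genotypes in M1, against a background of 8.38%.

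**Figure D4:**
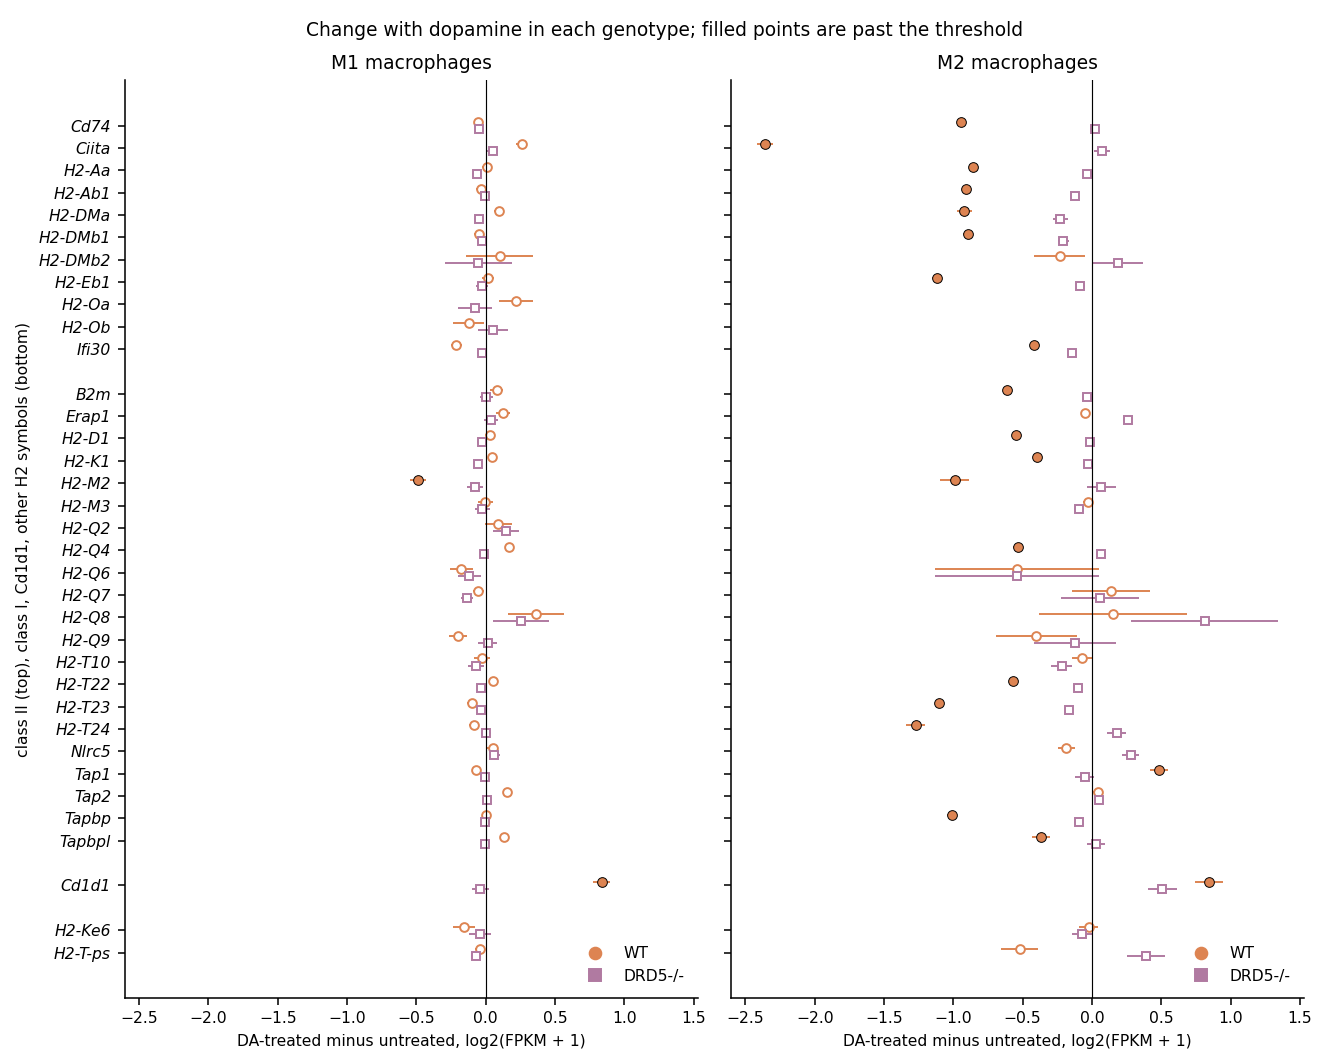
Change with DA, as the difference of log2(FPKM + 1) with its SE (bars), for each gene tested in M1 (left) and M2 (right) cells; circles are WT and squares DRD5-/-, and filled points are past the threshold. Filled points lie mainly among WT M2 cells, where Ciita is at −2.36, and only Cd1d1 and H2-M2 are filled in M1.

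Over the 24 libraries in 1 model, the DA effect in WT cells was tested for a difference between M1 and M2. It differed for 18 of the 35 genes, higher in M1 for 17 and lower for Tap1, with a background of 17.6% of 11148 genes higher and 28.2% lower. Class II accounted for 7 of the 17, led by Ciita (2.62 ± 0.07, adjusted p = 1.37e-18), H2-Eb1 (1.14 ± 0.06, adjusted p = 6.55e-14) and H2-DMa (1.01 ± 0.06, adjusted p = 4.22e-12). The largest in class I were H2-T24 (1.19 ± 0.08, adjusted p = 1.4e-11), Tapbp (1.01 ± 0.05, adjusted p = 1.32e-14) and H2-T23 (0.999 ± 0.05, adjusted p = 2.69e-14). Ifi30 had a small adjusted p at a size under 1.2-fold (0.20 ± 0.05, adjusted p = 0.000982). For Cd1d1 the difference between stimuli was −0.01 ± 0.12 (adjusted p = 0.967). On the FPKM scale its mean in WT cells rose 2.01-fold with DA in M1 and 2.71-fold in M2. The log2(FPKM + 1) scale understates the M2 change, since untreated WT M2 cells held a mean of 0.86 FPKM.

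Summed over the genes, class II took 0.616% ± 0.0257 (SD, n = 3) of the FPKM of untreated WT M2 libraries and 0.324% ± 0.00377 of DA-treated ones. It took 0.414% ± 0.00138 in untreated and 0.422% ± 0.00436 in DA-treated DRD5-/- M2 libraries. DA-treated WT cells were therefore the lowest and untreated WT cells the highest of the 4 M2 groups, with no overlap between any of WT untreated, WT DA-treated and DRD5-/- libraries. Class I took 1.37% ± 0.0398 and 0.904% ± 0.0073 in untreated and DA-treated WT, and 1.26% ± 0.00726 and 1.27% ± 0.00573 in untreated and DA-treated DRD5-/- M2 libraries. In M1 cells class I stayed between 2.51% and 2.79% and class II between 0.377% and 0.416% in all 12 libraries. These sums weigh each gene by its level. In untreated WT M2 cells Cd74 held a mean of 2001 FPKM and the next class II gene, H2-Aa, 398 FPKM. Of class I, B2m held 3868 FPKM and the next gene, H2-D1, 1603 FPKM. FPKM are shares of a library, so that fewer cells of a kind and less RNA per cell cannot be told apart.

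**Figure D5:**
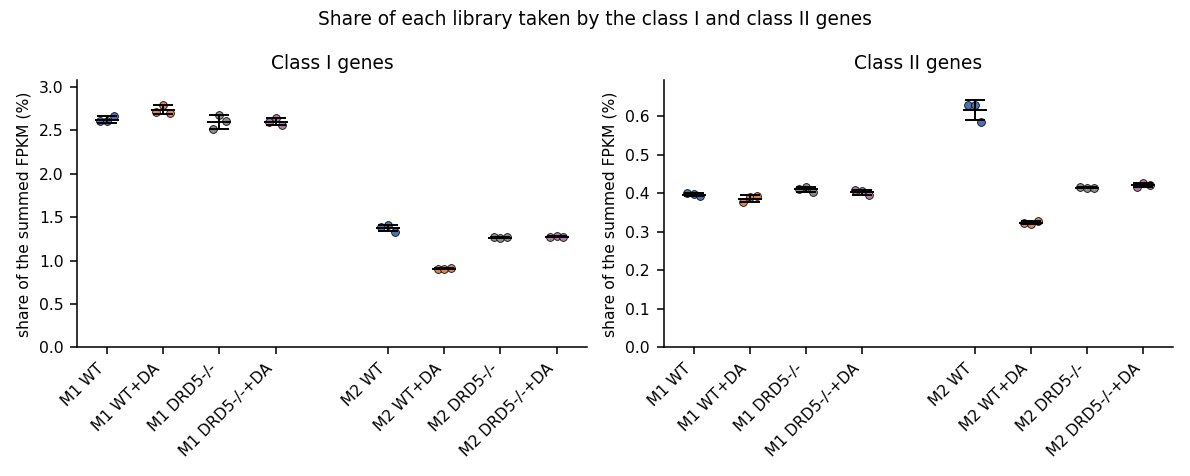
Share of the summed FPKM taken by the class I genes (left) and the class II genes (right) in each of the 24 libraries (points), with the mean and SD of each group of 3. In M2 the class II share is 0.616% in untreated and 0.324% in DA-treated WT cells, while the M1 groups lie between 0.387% and 0.41%.

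Genes of the wider pathway, listed apart from the 49, were read in the same fits. In WT M2 cells 3 of 38 rose and 17 fell with DA, beside 25.9% of all genes higher and 20.4% lower, and their median was −0.24 beside 0.03 for all genes. Among 9 genes of class II proteolysis and turnover, 7 fell and Ctsl rose. Cd83, which keeps class II on the cell surface, fell from 107.31, 102.42 and 107.71 FPKM to 13.43, 14.5 and 15.25 FPKM (−2.80 ± 0.04, adjusted p = 1.3e-15). Cathepsin H, Ctsh, fell from 129.16, 131.84 and 122.7 FPKM to 65.87, 66.24 and 63.27 FPKM (−0.96 ± 0.03, adjusted p = 1.72e-12). The untreated and DA-treated libraries of both genes lay far apart.
All 4 genes of related nonclassical molecules had negative values, and 3 passed. These were Procr (−0.80 ± 0.05, adjusted p = 1.87e-09), the protein C receptor, Fcgrt (−0.67 ± 0.04, adjusted p = 3.72e-09), the neonatal Fc receptor that pairs with B2m, and Hfe. Of 10 genes of class I folding and the immunoproteasome, 2 fell, a share near that of all genes, Lnpep and Psmb10, with Psmb10, an immunoproteasome subunit, at −0.65 ± 0.03 (adjusted p = 3.17e-11). Of 15 genes of the IFN-γ pathway and the MHC enhanceosome, 5 fell (Irf1, Irf8, Ifngr2, Rfxank and Rfxap) and 2 rose (Nfya and Nfyb).
Of the same 38 genes in WT M1 cells, 2 rose and 3 fell, a share near the 14.3% of all genes and so no result about the list. Cd83 again fell, from 36.25, 33.03 and 35.26 FPKM to 16.78, 17.43 and 15.09 FPKM (−1.04 ± 0.05, adjusted p = 8.28e-10), in the absence of a class II change that passed. Ctsl rose (0.52 ± 0.02, adjusted p = 5.34e-10), as did Mr1 (0.48 ± 0.05, adjusted p = 3.86e-06), which presents vitamin metabolites to MAIT cells. Irf8 (−0.42 ± 0.03, adjusted p = 1.32e-08) and Jak2 (−0.35 ± 0.05, adjusted p = 3.17e-05) fell.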

How the data were processed

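RNA-seq was run on 24 libraries (3 in each of 8 groups). The authors filtered BGISEQ-500 reads, mapped them to GRCm38 with HISAT2 per the methods (the submitters' processing notes name Bowtie2 2.2.5 and GRCm38.p6) and deposited FPKM with 2 decimals. No counts, read lengths or depths were used, so that depth is unknown and counting error cannot be given. FPKM summed to 476187 to 503799 per library. FPKM were transformed as log2(FPKM + 1), filtered at 1 FPKM in 3 of 12 libraries and fitted with limma 3.58.1 (R 4.3.3), group means and an intensity trend, M1 and M2 apart. For the difference between stimuli all 24 libraries entered 1 model. The fitting was tested on simulated data. The 49 genes were chosen by name, and they and the gene lists were chosen with earlier results of these data known. Genes were named in the text if they were class II, class I loading or control genes, H2-K1, H2-D1 or Cd1d1; of the other heavy chains up to 6, and of the wider pathway up to 5, with the largest changes among those past the threshold with DA in WT of each stimulus (5 heavy chains in M2 and 1 in M1); Irf1, Irf8 (in M2), Ifngr2, Rfxank, Rfxap, Nfya, Nfyb, Hfe and other uncalled heavy chains were named after their values were seen. Promoters and positions are from RefSeq (GRCm38.p6); shared 50-base stretches were counted over GENCODE M21 transcripts. Alternatives were a pseudocount of 0.1, no filter, a replicate block, median-of-ratios scaling, no trend, an adjusted p of 0.05, and leaving out each library.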

Additional observations from a re-analysis of the deposited data

Results flagged for a closer look

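For 22 genes the change with DA differed between WT and DRD5-/- cells by a test of the difference itself (limma, adjusted p under 0.001 and at least 1.2-fold); each value below is the WT change minus the DRD5-/- change on the log2 scale. Over all genes 8.38% passed in M1, and 20.4% negative and 22.8% positive in M2. In M1 cells this was Cd1d1 (0.88). In M2 cells the class II genes were Ciita (−2.43), H2-Eb1 (−1.04), Cd74 (−0.96), H2-Aa (−0.82), H2-Ab1 (−0.78), H2-DMa (−0.69), H2-DMb1 (−0.69) and Ifi30 (−0.27). The class I heavy chains were H2-T24 (−1.45), H2-M2 (−1.06), H2-T23 (−0.94), H2-Q4 (−0.60), H2-D1 (−0.53), H2-T22 (−0.47) and H2-K1 (−0.37). The light chain B2m stood at −0.57, and the loading and control genes at −0.91 for Tapbp, −0.47 for Nlrc5, −0.31 for Erap1 and 0.54 for Tap1. The pseudogene symbol H2-T-ps stood at −0.91. In Erap1, Nlrc5 and H2-T-ps neither genotype alone passed.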

How the results depend on the processing

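All 522 alternatives for the 29 genes named in WT M2 cells kept the direction and the call. In WT M1 cells 469 of 486 did for 27 genes, 4 gained a call and 13 turned direction, all of genes near 0. Of 254 alternatives for 14 counts, 232 stayed within 1.5 times, 9 were lower and 13 higher. With a pseudocount of 0.1, 1 class II gene (Ciita) passed with DA in WT M1 and 1 gene (Erap1) in DRD5-/- M2 cells. With median-of-ratios scaling, 1 class II gene (Ciita) passed in WT M1 and 5 genes, Ciita and Erap1 added, differed between DA-treated WT and DRD5-/- M1 cells. There the M1 changes of Cd74 (0.0155), H2-Ab1 (0.0374), H2-DMb1 (0.0244) and Tap1 (0.0054) turned positive; this scaling moved the median of all genes by at most 0.068. The difference of H2-Q7 in untreated M1 cells was lost, leaving 0 genes, with no filter, with the replicate block and with no intensity trend. At an adjusted p of 0.05, 2 genes (H2-M2 added) differed in DA effect between genotypes in M1, and 3 (Cd1d1, H2-T-ps and Nlrc5) changed with DA in DRD5-/- M2 cells. The cause was not tested.

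Leaving out 1 library at a time gave 1 to 2 class I genes with DA in WT M1 (H2-Q9 added without untreated WT replicate 3) and 0 to 1 class II genes (Ciita). It gave 0 to 1 genes between untreated genotypes in M1 and 1 to 2 with a DA effect that differed between genotypes in M1 (H2-M2 added without untreated WT replicate 3). In DRD5-/- M2 cells it gave 0 to 1 genes with DA (Erap1, without DA-treated replicate 2 or 3 or untreated replicate 2). The M1 changes of H2-Aa (−0.0145 to 0.0243), H2-DMb2 (−0.1021 to 0.3138), H2-Eb1 (−0.0039 to 0.0408) and Tapbp (−0.0139 to 0.0249) crossed 0. Same-numbered libraries did not deviate together (mean r −0.0208 in M1 and −0.016 in M2, 1 of 18 pairs over 0.1 in each). With the replicate block 8 class II and 11 class I genes passed with DA in WT M2 cells, and 17 differed between stimuli. The files give no counts, so what depth limits is unknown.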
